A study of Mus musculus with 9 samples.

Results

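The TRIM genes (tripartite motif genes) were followed in macrophages of the mouse peritoneal cavity 2 h after an injection of interferon. A gene was a member if its symbol in the platform table was Trim with a number and an optional letter, and if it had a probe set that carried this symbol alone. This rule found 58 members among 19752 genes, each with 1 probe set. RefSeq lists 68 Trim genes, and all 58 members were matched to it. The mice were male C57BL/6 animals, 6 weeks old. A first group (n = 4) was given IFNa, that is interferon alpha of type I, at 10000 U, a second (n = 2) was given IFNg, that is interferon gamma of type II, at 8000 U, and the other group (n = 3) stayed untreated. Both interferons were recombinant and were given under the skin, so the macrophages were exposed to it inside the animal. The controls were not injected, and any effect of the injection itself cannot be told apart from that of the interferon. The lavage cells passed through a cell sorter 2 times. The labels give the gate of the treated samples as F4/80+ ICAM2+ and that of the untreated samples as F4/80+ alone. The series text gives the same gate for all samples, and which is right cannot be told. If the labels are right, an effect of the gate cannot be told apart from that of the interferon. Each sample was hybridised to 1 Affymetrix array, and the signal is the log2 of the deposited intensity, so a difference of 1 is a 2-fold change. The labels do not say whether the samples of a group came from separate animals, so p-values measure the spread between these samples, which may be technical.

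TRIM proteins share a RING finger, 1 or more B-box domains and a coiled coil, and most are E3 ubiquitin ligases, which attach ubiquitin to chosen proteins. Some members bind viral parts directly, some switch the signalling of RNA and DNA sensors on or off, and others work in chromatin, muscle or germ cells. Type I interferon acts through the factor complex ISGF3, which binds the interferon-stimulated response element (ISRE), while genes that answer IFNg often carry the gamma-activated site (GAS).

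The starts of 8 Trim genes between Trim21 and Trim30d on chromosome 7 are shown first. This stretch holds members that rose and members that did not. Counted in RefSeq order from Trim21, Trim68 is gene 11 and Trim6 is gene 132, so many other genes lie between them. The sequences are RefSeq's for build GRCm38.p6, from 90 bases before to 30 bases after the annotated start, on the gene's strand, 5′ to 3′. Capitals mark each match to the ISRE core GAAANNGAAA or its reverse complement, and overlapping matches run together. Positions are counted so that 1 is the first base after the 90 upstream bases. Trim21 (chr7:102565453-102565572, minus strand) held 2 overlapping matches, at 14 to 23 and at 20 to 29. Trim34a (chr7:104244367-104244486, plus strand) and Trim12a (chr7:104315466-104315585, minus strand) each held 1 match, at 11 to 20. Trim12c (chr7:104353320-104353439, minus strand) held the same letters as Trim12a at -29 to -20. Trim30a (chr7:104465164-104465283, minus strand) and Trim30d (chr7:104507820-104507939, minus strand) each held 1 match, at -36 to -27 and at -41 to -32. RefSeq gives 2 starts for Trim30a, of which the upstream one is shown, and the window of the other also held 1 match, beginning at base 3. Trim6 (chr7:104218705-104218824, plus strand) and Trim68 (chr7:102687298-102687417, minus strand) held none.
Trim21: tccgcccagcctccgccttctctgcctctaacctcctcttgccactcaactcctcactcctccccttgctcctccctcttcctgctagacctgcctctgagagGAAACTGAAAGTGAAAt
Trim34a: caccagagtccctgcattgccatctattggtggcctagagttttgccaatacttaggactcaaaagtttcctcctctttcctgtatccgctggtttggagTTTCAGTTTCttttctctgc
Trim12a: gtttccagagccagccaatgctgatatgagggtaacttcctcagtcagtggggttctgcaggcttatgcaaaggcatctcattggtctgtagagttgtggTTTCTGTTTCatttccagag
Trim12c: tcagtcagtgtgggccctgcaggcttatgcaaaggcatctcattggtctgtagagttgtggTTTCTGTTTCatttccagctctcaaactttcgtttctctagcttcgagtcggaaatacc
Trim30a: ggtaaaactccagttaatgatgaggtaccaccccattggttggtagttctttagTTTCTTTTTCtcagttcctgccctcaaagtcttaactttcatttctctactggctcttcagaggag
Trim30d: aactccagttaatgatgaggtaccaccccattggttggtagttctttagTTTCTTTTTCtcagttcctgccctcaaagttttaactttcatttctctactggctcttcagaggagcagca
Trim6: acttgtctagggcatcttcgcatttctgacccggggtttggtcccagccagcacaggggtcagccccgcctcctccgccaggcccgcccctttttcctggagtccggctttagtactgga
Trim68: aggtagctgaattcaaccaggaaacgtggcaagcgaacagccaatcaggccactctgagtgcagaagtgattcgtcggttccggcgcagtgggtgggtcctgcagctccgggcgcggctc

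The search covered 250 bases before to 50 after each start, on both strands, and 46 of the 58 members had such a window. The ISRE core was found in 5 of the 6 windowed members that passed the test after an interferon (Trim12a, Trim21, Trim30a, Trim30d and Trim34a), and not in Trim25. It was found in 3 of the 40 other windowed members (7.5%), namely Trim12c, Trim2 and Trim26, and in 1079 of all 27025 genes with a window (3.99%). The GAS letters TTCNNNGAA were found in 0 of these 6 members, in 5 of the 40 others and in 9.55% of all genes. With 6 members, 0 matches does not show that these letters are rarer among them than among all genes. Of the 6, only Trim21, Trim30a and Trim30d were called after IFNg. Trim11, the 1 member called after IFNg alone, and Trim14 had no window and were not searched. A match describes the letters and shows no binding, and a missing match says only that these letters are not in the window. Trim30a and Trim30d are close copies, with 90.8% of aligned positions identical in this window, and Trim12a and Trim12c shared 72.6%, so their matches are not independent.

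Before the responses, some properties of the arrays bear on them. Array medians lay between 162.2 and 178.3 intensity units, and no pair of arrays was identical. Untreated replicate 1 and IFNa replicate 4 had a narrower range of intensities than the rest, with upper over lower quartile ratios of 2.27 and 2.16 on the log2 scale, against 2.68 to 3.03. Counts of called members are therefore given with and without both. Of the 9 measured markers of large peritoneal macrophages none was dim, in the sense given below for the members. The macrophage marker Adgre1, which encodes F4/80, moved by 0.04 after IFNa and 0.01 after IFNg (log2, adjusted p = 0.958 and 0.978). Of the 9, limma called 1, Gata6, the factor that maintains these macrophages, which was lower after both interferons, by -1.05 (adjusted p = 0.00997) and -1.16 (adjusted p = 0.0242). Timd4, another marker of them, moved by 0.25 and 0.42 (adjusted p = 0.376 and 0.266), with every treated sample above every untreated one. Icam2, which encodes ICAM2, moved by -0.24 and 0.05 (adjusted p = 0.656 and 0.937). Cd14, Csf1r, F5, Fn1 and Itgam moved by -0.35, -0.17, -0.17, -0.03 and -0.01 after IFNa. After IFNg they moved by -0.12, -0.09, -0.04, -0.08 and 0.01. Every IFNa sample of F5 and every IFNg sample of Fn1 lay below every untreated one. The median change of the 9 was -0.17 and -0.04. The summed intensity of the 4 measured B-cell markers was 550.6 to 862.7 in untreated samples, 422.1 to 1781 after IFNa and 456.4 to 505.3 after IFNg, with the highest value in IFNa replicate 2. Of 28 measured markers of mesothelium, mast cells, granulocytes, lymphocytes, dendritic cells and small macrophages, 0 passed the limma test in either comparison with untreated, and at an unadjusted p under 0.05 there were 1 after IFNa and 2 after IFNg, all lower. Of the 28, 17 were dim, and the part of other cells in the results was not tested. In these bulk samples fewer cells of a type and less RNA per cell cannot be told apart.

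After IFNa, 7 of the 58 TRIM genes rose and 0 fell at an adjusted p under 0.05 (limma with Benjamini-Hochberg adjustment over all genes). Trim30d rose most, 5.32-fold, followed by Trim21, the intracellular antibody receptor, at 3.89-fold. Trim30a, Trim12a, Trim14, Trim25 and Trim34a rose 2.44-fold to 3.87-fold. The 7 genes are 12.1% of the members, where 1.79% of all genes tested were higher and 0.856% lower. After IFNg, 4 members rose and 0 fell: Trim21, Trim30a, Trim30d and Trim11. They make up 6.9% of the members, where the shares over all genes tested were 1.24% for higher and 0.111% for lower. Trim21, Trim30a and Trim30d rose after both interferons, 4 members after IFNa alone, Trim11 after IFNg alone, and 50 after neither. A call in 1 comparison and not in the other does not show that the responses differ, which the direct comparison below tests. At an unadjusted p under 0.05, 10 members were higher and 7 lower after IFNa, and 9 higher and 2 lower after IFNg. The share of all genes under that unadjusted threshold was not counted, so such counts, also for the lists, have no background beside them. The median change over all 58 members was -0.03 after IFNa and -0.01 after IFNg, next to -0.02 and -0.06 over all genes. The median member thus stood about as near to 0 as the median gene, and the calls lay in a few members. A missing call does not show that a member did not change.

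**Figure D1:**
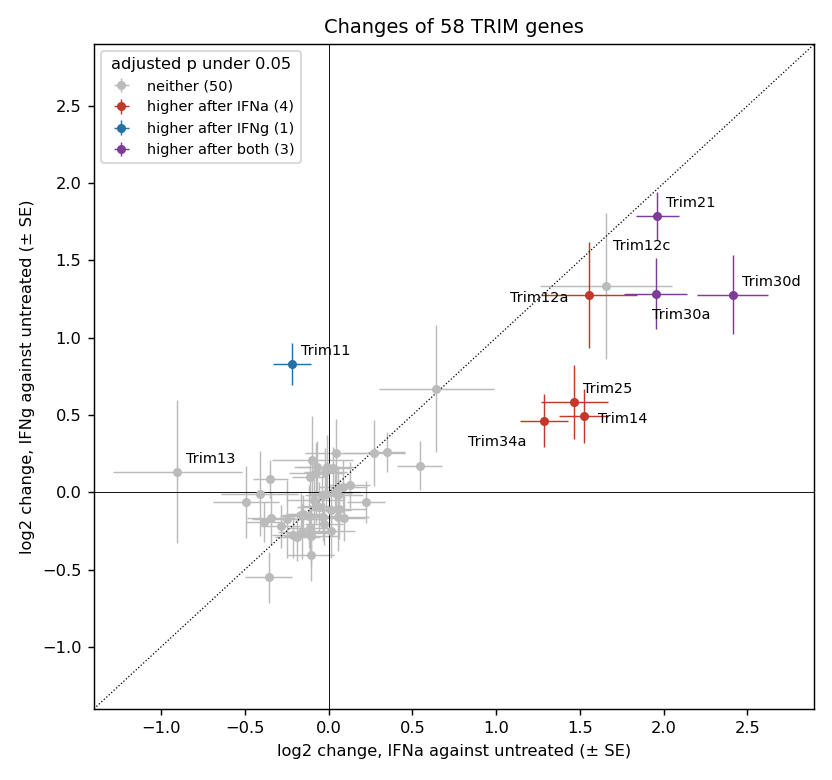
Log2 change of each of the 58 TRIM genes after IFNa (x axis) and after IFNg (y axis), each against untreated, with standard errors as bars; the dotted line marks equal change, and both axes share the 3 untreated arrays. Of the 50 members called in neither comparison, Trim12c, Trim13 and Trim59 lie farthest from 0 after IFNa, Trim21 lies close to the line, and Trim11 stands alone with 0.83 after IFNg and -0.22 after IFNa.

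Without both narrow arrays the counts were 8 higher and 1 lower after IFNa and 7 higher and 0 lower after IFNg. Over all genes the shares were then 2.37% higher and 3.23% lower after IFNa, and 1.81% and 0.734% after IFNg, so over all genes the calls after IFNa were more often lower than higher without these arrays. The genes added were Trim12c, and Trim13 as the lower one, after IFNa, and Trim12a, Trim12c and Trim34a after IFNg. After IFNa the calls over the whole array were 354 up and 169 down, against 476 and 522 with quantile normalization and 319 and 89 with median centring, so the balance of all calls depends on the scaling. After IFNg the corresponding counts were 245 and 22, 263 and 77, and 208 and 13. No call of a named TRIM gene turned to the other direction under any of these.

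Of the 7 members that rose after IFNa, 4 lie in the Trim cluster of chromosome 7. In RefSeq order this cluster runs from Trim6 over Trim34a, Trim5, Trim12a, Trim34b, Trim12c, Trim30b and Trim30c to Trim30a and Trim30d, with 18 annotated genes of which 10 are Trim genes. It holds the mouse relatives of TRIM5, a factor that binds the capsid of incoming retroviruses. Of the 6 with a probe set of their own, 4 rose after IFNa and 2 after IFNg (1.79% and 1.24% of all genes), and their median change was 1.61 and 1.28. Trim5, Trim34b, Trim30b and Trim30c were not analysed here. Whether the probe sets of Trim30a and Trim30d, or of Trim12a and Trim12c, also detect the other gene of the pair was not tested. The split within each pair is therefore uncertain.

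Trim30d had signals of 8.82, 9.59 and 9.81 in the untreated samples, 11.91, 11.72, 11.86 and 11.77 after IFNa, and 10.84 and 10.53 after IFNg. All 3 groups were separate, with IFNg between untreated and IFNa. The change was 2.41 ± 0.21 (SE, adjusted p = 1.52e-04) after IFNa and 1.28 ± 0.25 (adjusted p = 0.0448) after IFNg. Trim30a, a brake on NF-kB signalling that removes adaptor proteins of the kinase TAK1, followed the same order. Its signals were 10.59, 10.85 and 11.40 in untreated samples, 13.00, 12.71, 12.85 and 13.03 after IFNa, and 12.38 and 12.08 after IFNg. It rose by 1.95 ± 0.19 (adjusted p = 3.02e-04) after IFNa and by 1.29 ± 0.23 (adjusted p = 0.0233) after IFNg. The rises after IFNa were called under every alternative tried, and those after IFNg were not. For Trim30a after IFNg the adjusted p was 0.336 without IFNg replicate 1 and 0.13 without IFNg replicate 2, and 0.0556 and 0.114 without untreated replicate 1 or 2, with changes of 1.11 to 1.43, and it was 0.155 in a fit of untreated and IFNg samples alone. For Trim30d after IFNg it was 0.0521 to 0.546 without either IFNg replicate, without untreated replicate 2 or without any single IFNa replicate, with changes of 1.12 to 1.44. It was 0.0512 with an intensity trend in the variances, 0.0828 with median centring and 0.244 in the fit without the IFNa samples.

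Trim34a, whose human counterpart TRIM34 is a TRIM5 neighbour, had signals of 8.25, 7.77 and 7.79 in untreated samples, 9.35, 9.29, 9.14 and 9.11 after IFNa, and 8.46 and 8.34 after IFNg. Every treated sample lay above every untreated one, but the step was larger after IFNa. The change was 1.29 ± 0.14 (adjusted p = 7.6e-04) after IFNa and 0.46 ± 0.17 (adjusted p = 0.462) after IFNg. Trim12a, 1 of the mouse genes at the Trim5 locus, had signals of 8.22, 8.56 and 9.19 in untreated samples, 10.55, 10.28, 10.53 and 9.49 after IFNa, and 9.94 and 9.92 after IFNg. The treated groups lay above the untreated one and overlapped each other. The change was 1.56 ± 0.29 (adjusted p = 0.0188) after IFNa and 1.28 ± 0.34 (adjusted p = 0.176) after IFNg. The call after IFNa was lost without IFNa replicate 1, 2 or 3 or untreated replicate 1 or 2 (adjusted p 0.0546 to 0.103, change 1.34 to 1.53). Without IFNa replicate 4, Trim12a after IFNg passed the test (adjusted p = 0.0406).

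Trim12c is described although it falls outside the naming rule, and was singled out after its values were seen. Its signals were 6.23, 7.03 and 7.45 in untreated samples, 8.88, 8.89, 9.01 and 7.44 after IFNa, and 8.28 and 8.19 after IFNg. IFNa replicate 4 lay within the untreated range while the other 3 lay far above it. The change of 1.66 ± 0.40 (adjusted p = 0.0677) after IFNa was not called with all arrays, was called without the dimmest 30% of genes (adjusted p = 0.0441), and was 2.03 (adjusted p = 0.00362) without that replicate. The change after IFNg was 1.34 ± 0.47 (adjusted p = 0.431). Trim6, at the other end of the cluster and a ligase that makes free ubiquitin chains for antiviral signalling, was dim and moved by 0.22 ± 0.11 (adjusted p = 0.516) and -0.06 ± 0.13 (adjusted p = 0.89). Between Trim21 and Trim68 lie 7 further protein-coding genes, and the pair differed: Trim68 had signals between 8.14 and 8.30 on all 9 arrays and changes of -0.02 ± 0.10 and -0.01 ± 0.12 (adjusted p = 0.986 and 0.978). Trim6 and Trim68 were named for their position, after their values were seen.

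**Figure D2:**
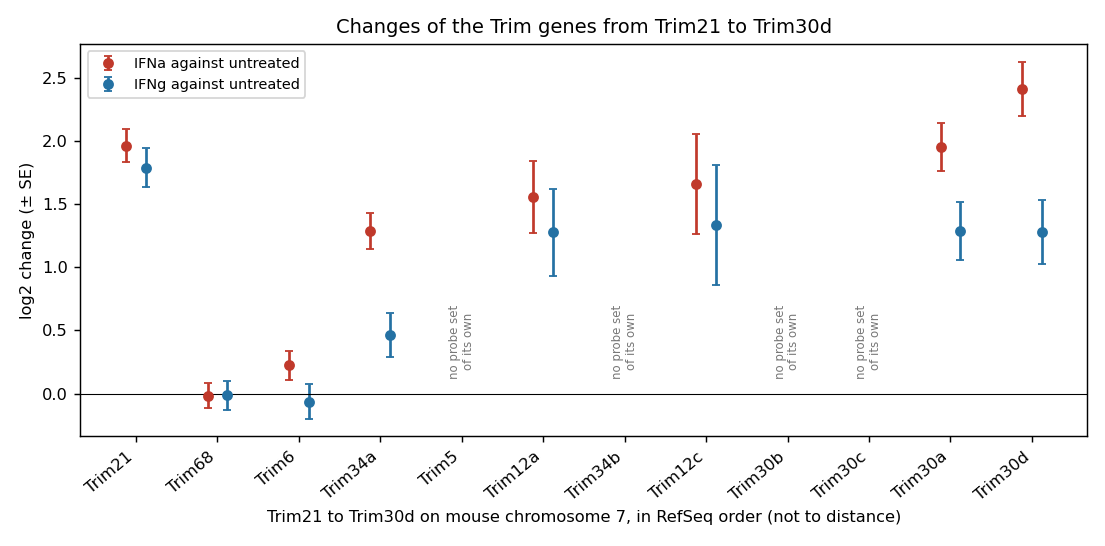
Log2 change against untreated, with standard errors, of the Trim genes from Trim21 to Trim30d on chromosome 7 in RefSeq order, in red after IFNa and in blue after IFNg; distances are not drawn to scale. Trim34a, Trim12a, Trim30a and Trim30d rose after IFNa, Trim12c moved by 1.66 without a call, and Trim68 and Trim6 stayed within 0.22 of 0.

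Among the 21 regulators of antiviral and inflammatory signalling, 3 rose after IFNa and 2 after IFNg, where 1.79% and 1.24% of all genes did. They were Trim21, Trim14 and Trim25 after IFNa and Trim21 and Trim11 after IFNg. The list's median change was -0.01 and 0.05. Trim21 binds the constant part of antibodies that enter a cell on a virus and sends the complex to the proteasome. Its signals were 8.21, 8.42 and 8.68 in untreated samples, 10.40, 10.29, 10.45 and 10.45 after IFNa, and 10.27 and 10.17 after IFNg. The treated groups lay just next to each other and far above the controls. The change was 1.96 ± 0.13 (adjusted p = 2.75e-05) after IFNa and 1.79 ± 0.15 (adjusted p = 3.69e-04) after IFNg, and both were called under every alternative tried. Between the interferons it differed by 0.17 (95% interval -0.15 to 0.50, adjusted p = 0.802).

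Trim14, an adaptor without a RING finger that joins the mitochondrial signalling protein MAVS, had signals of 9.36, 9.47 and 9.93 in untreated samples, 10.97, 11.19, 11.18 and 11.09 after IFNa, and 10.13 and 10.03 after IFNg. The IFNg samples lay just above the highest control, and the IFNa samples a further step above. The change was 1.52 ± 0.15 (adjusted p = 2.96e-04) after IFNa and 0.49 ± 0.18 (adjusted p = 0.436) after IFNg. Trim25, the ligase that attaches ubiquitin chains to the RNA sensor RIG-I, had signals of 9.64, 10.21 and 10.38 in untreated samples, 11.60, 11.68, 11.74 and 11.15 after IFNa, and 10.59 and 10.73 after IFNg. All 3 groups were again separate, with IFNg nearest to the controls. The change was 1.47 ± 0.20 (adjusted p = 0.00289) after IFNa and 0.58 ± 0.24 (adjusted p = 0.549) after IFNg. Without untreated replicate 3, Trim14 after IFNg passed the test, with 0.67 (adjusted p = 0.0468).

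**Figure D3:**
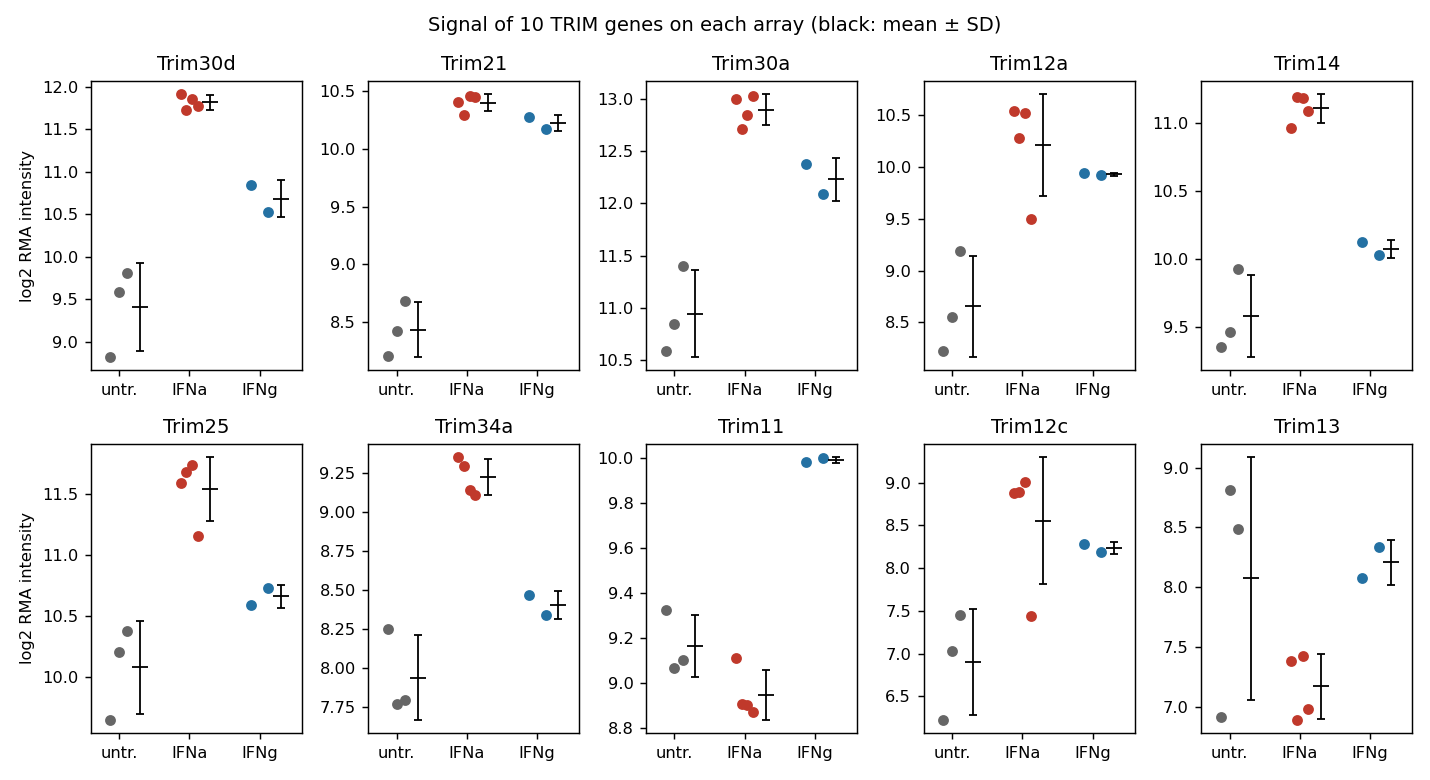
Log2 intensity of 10 TRIM genes on each array (points, in order of the replicate number) with the mean and SD of each group in black; the y axes differ between genes and do not start at 0. IFNa replicate 4 of Trim12c (7.44) and untreated replicate 1 of Trim13 (6.92) stand away from their groups, and both Trim11 signals after IFNg (9.984 and 10.003) lie above all other samples.

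The direct comparison of the interferons, which differ in dose (10000 U and 8000 U) as well as in kind, called 1 member higher after IFNa, Trim14, and 1 lower, Trim11. Each is 1.72% of the members, where 0.44% of all genes were higher after IFNa than after IFNg and 0.537% lower. With quantile normalization the counts over all genes turned from 87 higher and 106 lower to 149 and 114. Trim14 was higher after IFNa by 1.03 ± 0.17 (adjusted p = 0.0187). This call was lost under median centring (adjusted p = 0.0571), without IFNa replicate 2 or 3 (0.0669 and 0.0662) and without IFNg replicate 1 or 2 (0.206 and 0.312), with differences of 0.98 to 1.08. Trim11 is a ligase with roles in protein quality control and in the restraint of inflammasomes. Its signals were 9.32, 9.07 and 9.10 in untreated samples, 9.11, 8.91, 8.90 and 8.87 after IFNa, and 9.984 and 10.003 after IFNg. Both IFNg samples lay above all others, while the IFNa and untreated samples overlapped. The change was 0.83 ± 0.14 (adjusted p = 0.0167) after IFNg and -0.22 ± 0.11 (adjusted p = 0.547) after IFNa, and the direct difference was -1.05 ± 0.13 (adjusted p = 0.00494). With quantile normalization the change after IFNg was 0.62 (adjusted p = 0.296) and the direct difference -0.87 (adjusted p = 0.0971). Without IFNg replicate 1 or 2 the adjusted p after IFNg was 0.217 or 0.205, without untreated replicate 2 it was 0.0882, and the direct difference had 0.0967 or 0.102 without an IFNg replicate. With 1 of these arrays left out, the change after IFNg lay between 0.78 and 0.84, and the call was lost. The 2 IFNg signals are nearly equal, so leaving out either could hardly move the change. In a fit of untreated and IFNg samples alone the adjusted p was 0.0923.

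Trim30d, Trim25, Trim34a and Trim30a also had higher mean signals after IFNa than after IFNg, by 1.13, 0.88, 0.82 and 0.67 on the log2 scale. They missed the threshold (adjusted p = 0.0777, 0.159, 0.0534 and 0.367). Their IFNa signals lay above all IFNg signals, as did those of other members, among them Trim21 and the dim Trim6. The share of all genes with such separation was not counted. Trim30d, Trim25 and Trim34a passed it without both narrow arrays (adjusted p = 0.00309, 0.00168 and 0.00346). With quantile normalization Trim30d and Trim25 passed (0.00839 and 0.00615), in a fit of only the treated samples Trim30d and Trim34a (0.0144 and 0.031), and without the dimmest 30% of genes Trim34a (0.0436). Trim34a also passed without IFNa replicate 4 (0.0484), and Trim34a and Trim30d without untreated replicate 1 (0.0122 and 0.0049). Of the 37 members that were neither called in the direct comparison nor dim, in the sense given below, 30 had a 95% interval within 1 log2 unit of 0, and Trim12a, Trim12c, Trim13, Trim25, Trim30a, Trim30d and Trim34a did not.

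The other regulators of sensor signalling that were followed by name did not pass the test in any of the 3 comparisons. Trim26, a ligase tied to the turnover of IRF3, came nearest, with signals of 8.01, 8.05 and 8.34 in untreated samples, 8.54, 8.76, 8.85 and 8.56 after IFNa, and 8.22 and 8.39 after IFNg. Its IFNa samples all lay above the untreated ones, and the change was 0.54 ± 0.13 (adjusted p = 0.0737). It passed with quantile normalization (0.59, adjusted p = 0.00912) and without untreated replicate 3 (0.65, adjusted p = 0.0412). Trim56, linked to the DNA sensing adaptor STING, moved by 0.35 ± 0.11 (adjusted p = 0.179) after IFNa and 0.26 ± 0.13 (adjusted p = 0.657) after IFNg, with every treated sample above every untreated one. Trim8, which promotes NF-kB signalling, moved by -0.36 ± 0.14 and -0.55 ± 0.17 (adjusted p = 0.322 and 0.284), and fell after IFNg with quantile normalization (-0.78, adjusted p = 0.0221).

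Trim13, a ligase of the endoplasmic reticulum, had signals of 6.92, 8.82 and 8.49 in untreated samples, 7.38, 6.89, 7.43 and 6.99 after IFNa, and 8.08 and 8.34 after IFNg. Untreated replicate 1 lay with the IFNa samples, and the other 2 untreated samples lay with those of IFNg. The change after IFNa was -0.90 ± 0.39 (adjusted p = 0.388) with all arrays and -1.48 (adjusted p = 0.00476) without untreated replicate 1. Between the interferons it was -1.04 ± 0.44 (adjusted p = 0.662), and reached adjusted p = 0.0432 without that replicate. Trim65 (linked to the RNA sensor MDA5), Trim27 (linked to the kinase TBK1), Trim28 (a chromatin corepressor) and Trim32 (linked to STING) moved by -0.15, -0.01, -0.07 and -0.02 after IFNa, and by -0.14, 0.16, 0.17 and 0.13 after IFNg. Trim38, which limits inflammatory signalling, was dim and moved by 0.06 and -0.11. The 95% intervals of Trim65, Trim27, Trim28 and Trim32 lay between -0.42 and 0.62, so changes of 2-fold lay outside them, while the dim signal of Trim38 sets no such limit.

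Of 31 members in the remaining groups, 0 passed the limma test, and at an unadjusted p under 0.05 there were 2 after IFNa and 1 after IFNg, all lower. The groups were the TIF1 group of chromatin regulators (4 measured), the NHL group, which includes RNA-binding proteins of development (4 measured), muscle genes (4 measured, among them Trim63, which marks muscle protein for breakdown), genes of germ line and early embryo (3 measured of 8 listed) and 16 further genes. Their median changes lay between -0.11 and -0.03 after IFNa. After IFNg they lay between -0.18 and 0.08. Among the further genes, Trim59 moved most, by 0.64 ± 0.34 (adjusted p = 0.561) and 0.67 ± 0.41 (adjusted p = 0.716), and is named after its values were seen. Its IFNa signals were widely spread, from 6.15 in replicate 4 to 7.90 in replicate 3.

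Part of the members without a call gave little signal at all. A gene was called dim when its mean lay, in each of the 3 groups, at or below the 95th percentile of 1194 genes of smell and vomeronasal receptors, which macrophages are not known to use. These limits were 6.93 in untreated samples, 7.01 after IFNa and 6.72 after IFNg. By this measure 19 of the 58 members were dim and 39 were not, against 7037 of all 19752 genes. None of the 8 responding members was dim. All 3 measured germ-line genes (Trim42, Trim69 and Trim75), 2 of the 4 muscle genes and 5 of the 21 regulators were. The other 31 members without a call against untreated were above the limit in at least 1 group. Signals of different probe sets are not compared as amounts of RNA. The signal of a dim probe set may not follow its RNA, so the interval of a dim member sets no limit on its change.

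**Figure D4:**
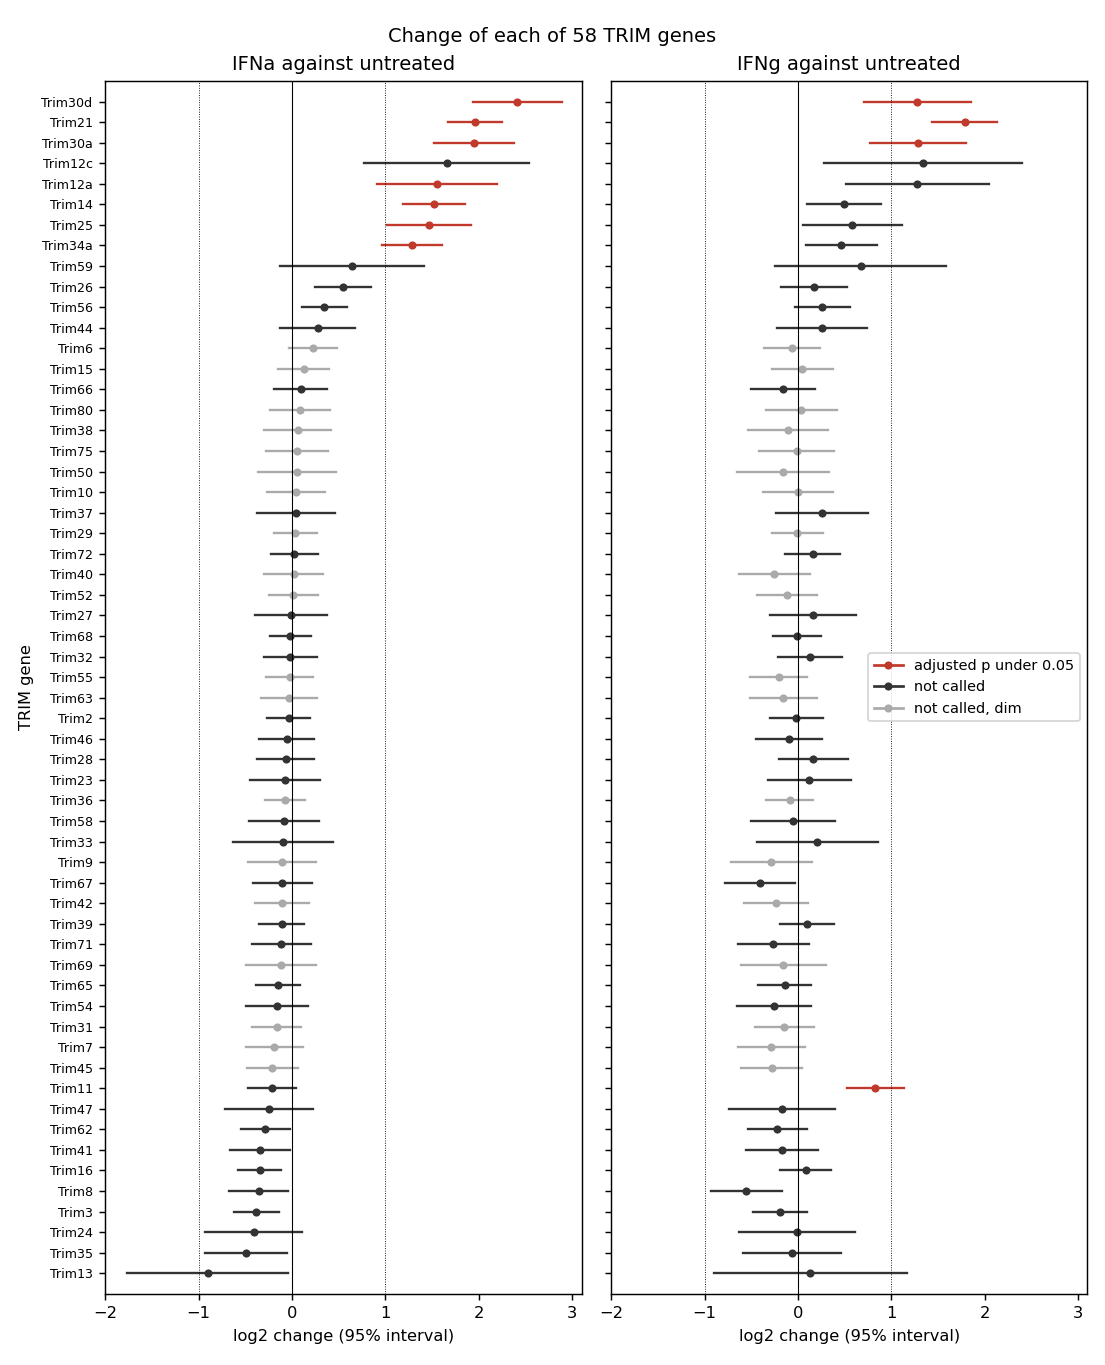
Log2 change of each of the 58 TRIM genes with its 95% interval after IFNa (left) and IFNg (right), in order of the IFNa change; red marks an adjusted p under 0.05, black no call and grey a dim member without a call, and dotted lines mark 2-fold changes. Of the members neither called nor dim, 29 of 32 intervals on the left and 30 of 35 on the right stay within the dotted lines.

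After IFNa, 29 of the 32 members that were neither called nor dim had a 95% interval within 1 log2 unit of 0, and Trim12c, Trim13 and Trim59 did not. After IFNg it was 30 of 35, without Trim12a, Trim12c, Trim13, Trim25 and Trim59. The members not called ranged from -0.90 to 1.66 after IFNa and from -0.55 to 1.34 after IFNg. The treated samples lay wholly above the untreated ones for 9 members after IFNa and for 13 after IFNg, and wholly below for 4 and 7. Over all genes tested the samples lay wholly above for 3.68% and 12.3%, and wholly below for 6.75% and 15.5%, so that the counts of members below were near or under the background, and with 2 IFNg arrays such separation is common. The separated members without a call were therefore several, for example Trim56 above after both, and Trim3 and Trim36 below after both.

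TRIM proteins with other symbols and the genes they act with were followed in lists. Of 7 relatives, Pml, Mid1 and Rnf135 rose after IFNa and Pml after IFNg, where 1.79% and 1.24% of all genes rose. Pml, which builds nuclear bodies, had signals of 10.32, 10.37 and 10.55 in untreated samples, 11.52, 11.64, 11.68 and 11.65 after IFNa, and 11.61 and 11.52 after IFNg. Like Trim21 it reached nearly the same signal after both interferons. It rose by 1.21 ± 0.11 (adjusted p = 1.5e-04) and by 1.15 ± 0.13 (adjusted p = 0.00171). Mid1, a ligase on microtubules, rose by 1.31 ± 0.20 (adjusted p = 0.00567) after IFNa and moved by 1.11 ± 0.24 (adjusted p = 0.0645) after IFNg, which passed without IFNa replicate 2 (adjusted p = 0.0396). Rnf135, also called Riplet, a second ligase for RIG-I, rose by 0.73 ± 0.11 (adjusted p = 0.00644) after IFNa and moved by 0.16 ± 0.13 (adjusted p = 0.761) after IFNg. Mefv (pyrin), Mid2, Bspry and Fsd1 moved by -0.02, -0.30, -0.18 and 0.03 after IFNa, and by 0.03, -0.15, -0.34 and -0.30 after IFNg.

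Of 19 measured genes of RNA and DNA sensing, on which several TRIM ligases act, 6 rose after IFNa (Cgas, Ddx58, Dhx58, Ifih1, Irf7 and Zbp1) and 3 rose after IFNg (Irf7, Sting1 and Zbp1), next to 1.79% and 1.24% of all genes. By limma 0 fell, and at an unadjusted p under 0.05 there were 2 lower after IFNa and 0 after IFNg. The median changes of the list were 0.27 and 0.21. Ddx58, which encodes the Trim25 target RIG-I, rose by 2.62 ± 0.26 (adjusted p = 3.31e-04) after IFNa and moved by 0.99 ± 0.31 (adjusted p = 0.303) after IFNg. Ifih1, which encodes the RNA sensor MDA5, rose by 2.44 ± 0.19 (adjusted p = 6.3e-05) and moved by 0.94 ± 0.22 (adjusted p = 0.11). Both were higher after IFNa than after IFNg (adjusted p = 0.0325 and 0.0094). Sting1, a target of Trim32 and Trim56, went the other way: it moved by 0.27 ± 0.29 (adjusted p = 0.877) after IFNa and rose by 2.16 ± 0.34 (adjusted p = 0.0142) after IFNg, with a direct difference of -1.89 (adjusted p = 0.0263). Without IFNg replicate 1 or 2, which leaves 1 IFNg sample, the change of Sting1 after IFNg was 2.01 or 2.31. That of Irf7 was 1.76 or 1.86. Neither gene kept its call in these fits, where calls over all genes also became fewer. Irf7 also missed the threshold after IFNg without untreated replicate 2 (0.114) and without IFNa replicate 1, 2 or 3 (0.0684, 0.0607 and 0.0597). The direct calls were 2 higher and 1 lower, next to 0.44% and 0.537% of all genes, and were not kept with 1 IFNg sample left. They went to 1 and 0 without untreated replicate 2 or IFNa replicate 1, 2 or 3. Over all genes 0.248% to 0.359% were then higher and 0.319% to 0.42% lower. Without untreated replicate 1 the higher direct calls were 4, next to 0.658% of all genes. Mavs, the partner of Trim14, moved by 0.06 ± 0.20 and 0.21 ± 0.24 (adjusted p = 0.972 and 0.813).

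Of 12 enzymes that pass ubiquitin or its relatives to a ligase, Ube2l6, which serves ISG15 in particular, rose by 2.25 ± 0.31 (adjusted p = 0.00303) after IFNa and moved by 1.63 ± 0.37 (adjusted p = 0.0847) after IFNg. It was the 1 enzyme called after IFNa, where 1.79% of all genes were higher. After IFNg limma called 0 with all arrays (1 at an unadjusted p under 0.05) and 1 without untreated replicate 1. Over all genes 1.24% and 0.992% were then higher. Ube2n, with which several TRIM ligases build chains, moved by 0.52 ± 0.26 (adjusted p = 0.51) after IFNa. Of 3 measured genes listed for antibodies and the proteasome, 1 was called, Fcgr1, where 1.79% and 1.24% of all genes were higher. Fcgr1, the high-affinity antibody receptor at the cell surface, rose after both, by 2.75 ± 0.23 (adjusted p = 9.4e-05) and 2.32 ± 0.27 (adjusted p = 0.00246). Without IFNg replicate 1, which leaves 1 IFNg sample, the change of Fcgr1 after IFNg was 2.21, and its call was not kept. Vcp and Psmd14, which work at the proteasome, were not called.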

How the data were processed

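RNA of 9 samples was measured on Affymetrix arrays, 1 per sample. The deposited values are intensity on a linear scale, made with RMA in Affymetrix Power Tools per the submitters' processing notes (background correction, normalization and summary of probes), with no version. Which arrays were normalized together is not given in the sources used here. The number of arrays sets the precision.

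Values were put on the log2 scale. Of 24922 probe sets, 21425 carried 1 gene symbol, and the one with the highest mean represented each of 19752 genes. Groups followed the treatment label. In limma 3.58.1 (R 4.3.3), 1 model held the 3 group means of all 9 arrays (degrees of freedom 6 residual and 3.62 prior). Groups share 1 spread, so that of the 2 IFNg arrays is taken to equal that of the rest. P-values are two-sided, with Benjamini-Hochberg adjustment over all genes of a comparison, and a call is an adjusted p under 0.05. Errors after a change are standard errors. On simulated data the model recovered most large changes and only part of the 2-fold ones, fewest with the 2 IFNg arrays, so a missing call does not show that a gene did not change. Motifs and figures were made with Python 3.11.15, pandas 2.3.3, Biopython 1.88 and matplotlib 3.10.9.

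The members, lists and tests were chosen with earlier results of these data known. Named by rule were members called in any comparison, Trim21, Trim14, Trim30a, 10 regulators of antiviral signalling and the relatives. Of other lists, up to 4 genes with the smallest p were to be named. Further genes are named where a count is spelled out or as examples, some after their values were seen. Of these, Trim12c, Trim59, Trim6 and Trim68 are marked as such in the text. Correlations of deviations between untreated and treated samples ranged from -0.211 to 0.604 with the same title number. With the same description number they ranged from -0.442 to 0.106. Not every pair passed 0.1, and neither numbering was used as pairing. With so few arrays per group these correlations cannot exclude that samples were paired. Alternatives were an intensity trend, removal of the dimmest 30% of genes, quantile normalization, median centring, a fit of the compared groups only, replicate blocks, all probe sets with 1 symbol, an adjusted p under 0.01, at least a 2-fold change, and omission of each array or of both narrow arrays. Of Trim genes, 6 probe sets with several symbols were left out.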

Additional observations from a re-analysis of the deposited data

Results flagged for a closer look

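With 4 samples in the IFNa group, 1 sample of 3 members lay far from the rest, by a test that was made for 18 genes and that chance alone passes in about 1 of 20 groups. For Trim11, IFNa replicate 1 had a signal of 9.11, next to 8.91 as the nearest of the others. For Trim12c, IFNa replicate 4 had 7.44, next to 8.88. For Trim38, which is dim, the same replicate had 5.91, next to 5.38. IFNa replicate 4 is 1 of the 2 arrays with a narrow range of intensities, and the part of that range in these values was not tested.

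The response to the interferons differed, by the direct comparison, for Trim11 (-1.05, IFNa minus IFNg) and Trim14 (1.03).

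Outside the members, 6 probe sets carried several symbols of which at least 1 was a Trim gene, and no gene is named from them. Of these, 2 were higher after IFNa, where the 6 changes ranged from 0.05 to 1.95, and 0 after IFNg, where they ranged from -0.21 to 1.09.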

How the results depend on the processing

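For 75 changes of named genes under 20 alternatives, 1497 values were obtained. Of these, 1416 kept the side of the threshold, 42 lost the call, 39 gained one and 0 called values reversed. Among the 1416 are 56 values that were not called and changed sign. With all arrays the counts of members were 7 higher and 0 lower after IFNa, 4 and 0 after IFNg, and 1 and 1 between the interferons. Over the omission of single untreated or IFNa arrays they ranged from 6 to 8 and from 0 to 1 after IFNa. After IFNg they ranged from 1 to 5 and from 0 to 0, and between the interferons from 0 to 3 and from 1 to 2. In the fits with 1 IFNg sample left, neither Trim11 nor Trim14 kept its direct call. The single lower member after IFNa appeared without untreated replicate 1 and is Trim13. In that fit 1.29% of all genes were lower. Without single untreated or IFNa arrays, 1.32% to 2.25% of all genes were higher after IFNa and 0.699% to 1.84% after IFNg. Between the interferons 0.248% to 0.658% were then higher and 0.319% to 0.739% lower. Without both narrow arrays there were 1 lower after IFNa, 7 higher after IFNg, and 5 higher and 2 lower between the interferons. Over all genes these shares were 3.23%, 1.81%, 1.27% and 1.48%.

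Quantile normalization gave 1 lower after IFNa (Trim35), 1 lower after IFNg (Trim8), and 3 higher and 0 lower between the interferons, where 2.64%, 0.39%, 0.754% and 0.577% of all genes were called. The number higher between the interferons was 0 under median centring and at an adjusted p under 0.01 (0.344% and 0.213% of all genes). It was 2 without the dimmest 30% of genes (0.687%), and 3 when the treated samples were fitted alone (0.491%). The number higher after IFNg was 1 when untreated and IFNg samples were fitted alone and at an adjusted p under 0.01 (0.567% and 0.648%). The cause was not tested. A replicate block by title number gave 10 higher after IFNa, 7 after IFNg and 2 between the interferons. Over all genes 2.97%, 2.98% and 0.44% were then higher. A replicate block by description number gave 10, 2 and 2, where the shares were 3.68%, 1.17% and 0.405%. The check described cannot tell whether either numbering pairs the samples, so the block says nothing on pairing.

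The IFNg group has 2 arrays, and without either of them the lone sample is assumed to vary like the other groups. Arrays of narrow range, the lack of injected controls and the labelled difference in gate limit what the comparisons can show. Dim members show no limit on their change.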
